A study of Mus musculus with 14 samples.

Results

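The genes described here copy DNA and supply its building blocks. They were chosen by name: 43 genes were listed, and each was read from the probe set, with 1 gene symbol in the platform annotation, that had the highest mean over all arrays. Of the 43 genes, 40 were measured in this way, among 18820 genes in all. Gins2, Rfc4 and Tyms were matched only by probe sets that are shared with another gene, so no value is given for them. The 40 genes were grouped by role into origin licensing (10 genes), helicase activation (5), the sliding clamp and its loader (5), single-strand binding (2), polymerases and primase (8), Okazaki fragment joining (2), deoxynucleotide synthesis (4) and the copying of chromatin and DNA methylation (4).

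The study asked whether loss of Cdx2, the homeobox factor that specifies the intestine, turns adult intestinal stem cells (SCs) of the mouse into gastric ones. Transcript levels of 14 samples were read on Mouse Gene ST 1.1 arrays of Affymetrix, with 1 array for every sample. FACS-sorted cells with high Lgr5-EGFP, a reporter knocked into the locus of the stem cell marker Lgr5, came from 3 groups of clonal organoids. These were Cdx2null SI SCs (n = 2), control Sto SCs (n = 2) and control SI SCs (n = 3), where SI is small intestine and Sto is stomach. The study states stomach medium for 2 samples of each of these groups, and 1 control SI SC array has no stated medium. Unsorted whole organoids formed 4 further groups: SI organoids in Sto medium (n = 1), Sto organoids in Sto medium (n = 1), 2 arrays of Sto organoids in SI medium and 3 arrays of SI organoids in SI medium. SI medium contains EGF, Noggin and R-spondin, and Sto medium adds Wnt3a, Fgf10 and gastrin. The study reports that control Sto SCs depend for growth on the factors that Sto medium adds. The study also uses SI medium as the medium that allows Sto organoids to differentiate. By the sample titles, all animals carried the Lgr5-EGFP-Ires-CreERT2 allele, and all control cells and all organoids were Cdx2-/fl. The controls too thus had only 1 functional Cdx2 allele. The text of the study, however, calls the organoids that it compared by microarray in both media wild-type, and the titles are followed here. Cdx2null cells were derived from Cdx2-/fl organoids by overnight exposure to 4-hydroxytamoxifen, which activates the Cre recombinase in Lgr5-expressing cells only. The donors were adult male and female mice of a mixed C57Bl6j/CBA background, and the organoids hold epithelium without mesenchyme. The study describes 2 samples of each type of SC as independent. Control SI SCs 1 and 2 differ in sex by the level of Xist (3.35 and 11.71), so that they come from different animals. For the remaining control SI SC array and the other groups the labels do not say which arrays come from separate animals or clones. There, p-values measure the spread between these samples, which may be technical.

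In a dividing cell, the origin recognition complex, Cdc6 and Cdt1 load the ring of Mcm2 to Mcm7 onto origins in G1, and Cdc45, Mcm10 and the GINS complex turn that ring into the active helicase at the start of S phase. DNA polymerase alpha with primase lays down primers, the clamp Pcna and its loader hold the polymerases delta and epsilon on the template, and Fen1 and Lig1 join the lagging strand. Ribonucleotide reductase, Tk1 and Dut maintain the pool of deoxynucleotides, while Uhrf1, Dnmt1 and the Chaf1 complex restore methylation marks and nucleosomes behind the fork. In the gut, Lgr5-positive stem cells and their transit-amplifying daughters divide rapidly, whereas differentiated cells leave the cycle, and many of these genes are known targets of E2F factors.

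Because the genes below moved together, their promoters were read for words bound by E2F factors. Of the 40 genes, 34 matched a RefSeq promoter of build GRCm38.p6, running from 250 bases before to 50 bases after the start site. Searched were the words TTTCCCGC, TTTCGCGC, TTTGCCGC and TTTGGCGC on both strands, which may overlap one another. At least 1 of them was present in 12 of the 34 promoters (35.3%), against 626 of all 27025 promoters of that length in the table (2.32%) and 3.15% of those of genes on the array. CCAAT, the word bound by NF-Y, was present on either strand in 67.6% of the 34 promoters and in 37.9% of all, and TTTGAA, a word of cell cycle homology regions, in 14.7% and 18.1%. A match is a description of the sequence, and binding was not measured. The 170 bases before the start site are shown for Mcm5, Mcm6 and Pola1, which have an E2F word there and differed strongly between groups, and for Gins3, which has one and hardly differed. Capitals mark the E2F words:
Mcm5 (chr8:75109339-75109508, plus strand): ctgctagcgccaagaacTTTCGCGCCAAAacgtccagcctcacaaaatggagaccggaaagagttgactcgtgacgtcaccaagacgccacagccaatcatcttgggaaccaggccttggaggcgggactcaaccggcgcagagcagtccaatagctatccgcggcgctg
Mcm6 (chr1:128359706-128359875, minus strand): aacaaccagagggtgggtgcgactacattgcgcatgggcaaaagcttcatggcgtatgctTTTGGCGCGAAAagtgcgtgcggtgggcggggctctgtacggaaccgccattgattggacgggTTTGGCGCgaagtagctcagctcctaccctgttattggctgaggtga
Pola1 (chrX:93632156-93632325, minus strand): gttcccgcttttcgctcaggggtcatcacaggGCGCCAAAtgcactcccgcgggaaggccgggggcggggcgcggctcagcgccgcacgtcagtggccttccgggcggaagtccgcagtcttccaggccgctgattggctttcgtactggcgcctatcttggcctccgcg
Gins3 (chr8:95633389-95633558, plus strand): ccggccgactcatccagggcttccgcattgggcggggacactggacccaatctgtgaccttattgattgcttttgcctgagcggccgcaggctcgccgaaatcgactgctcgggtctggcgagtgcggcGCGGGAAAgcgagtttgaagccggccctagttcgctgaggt
In Mcm5 a pair of words overlaps, with first letters at positions -153 and -149 relative to the start site. Mcm6 holds an overlapping pair at -110 and -106 and a further word at -47. Pola1 has its word at -138 and Gins3 at -41. In control Sto SCs against Sto organoids in SI medium, the first comparison below, the 12 genes with a word had a median log2 difference of 1.57, and the 22 genes without one of 1.50.

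Before the results, some arrays need a remark. Cdx2 itself was at 8.41 (log2) in the library labelled Cdx2null SI SCs 1 and at 4.88 in Cdx2null SI SCs 2, against 8.94 to 10.05 in control SI SCs, and the probes of the array include exons that remain after the deletion. In that library Cdh17 was also high (8.44, against 6.04 in replicate 2 and 11.09 to 11.51 in control SI SCs), while Muc13 (3.73), Isx (4.02), Cdx1 (4.79) and Olfm4 (3.79) were low and Tff2 (11.18) and Cblif (10.56) high, as in replicate 2. The library labelled SI organoids in SI medium 1 had Cdx2 at 5.52, a mean of 5.72 over 6 intestinal identity genes and a mean of 8.74 over 10 gastric genes, while replicates 2 and 3 of that group had Cdx2 at 9.92 and 9.67. In this library Muc5ac (3.88) and Muc6 (11.16) were near Sto organoids in Sto medium (3.59 and 10.92). Sto organoids in SI medium had Muc5ac at 12.28 and 12.03 and Muc6 at 5.82 and 8.15. Whether the medium of this library is as labelled was not tested. In Cdx2, both libraries go against their labels, the second also in the other markers, and results that rest on them are also given without them. Replicate 3 of the control SI SCs and replicate 3 of the SI organoids in SI medium were exported differently from the other arrays, with upper quartiles of 7.50 and 7.57 against 7.79 to 7.90. All 5 endothelial markers were under the array median (4.72 to 5.05) on all arrays, with means of 3.45 to 3.74, and 8 mesenchymal markers averaged 4.48 to 4.88, with Vim reaching 7.71. Of 6 immune markers (mean 4.56 to 5.26), Ptprc, Cd3e and Itgam were at most 4.34, but Lyz2 ran from 3.04 to 8.50 and Cd68 from 5.19 to 10.36, highest in control Sto SCs (10.26 and 10.36). The part of these genes in the results was not tested. By Xist, 3 arrays were male, namely control SI SCs 1 and 3 and Sto organoids in Sto medium, and the other 11 female. Control SI SCs are thus the only group with both sexes. In fits with SCs, a term for sex therefore rests on replicate 2 of that group against replicates 1 and 3. A dissociation stress list (Fos, Jun and others) was at 9.80 to 10.76 in sorted cells and at 7.17 to 8.30 in organoids. Its part in any difference between sorted cells and organoids was not tested.

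The replication genes had 1 dominant pattern, a low level in Sto organoids in SI medium. The mean of the 40 genes was 6.93 and 7.16 (log2) on the 2 arrays of Sto organoids in SI medium, against 8.30 to 9.26 on the 12 other arrays. For 37 of the 40 genes both arrays of that group lay under every other array, and the exceptions were Gins3, Gins4 and Pola2. The remaining groups were close to one another, with group means of 8.98 in control SI SCs, 8.91 in SI organoids in Sto medium, 8.70 in Sto organoids in Sto medium, 8.64 in Cdx2null SI SCs, 8.61 in SI organoids in SI medium and 8.48 in control Sto SCs. Neighbours in that order differed by less than the spread within the groups of 3 arrays, with Cdx2null SI SCs at 8.61 and 8.67, SI organoids in SI medium at 8.30, 8.63 and 8.91, and control Sto SCs at 8.36 and 8.59. Control SI SCs had the highest array for 30 of the 40 genes, in 27 cases replicate 2.

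**Figure D1:**
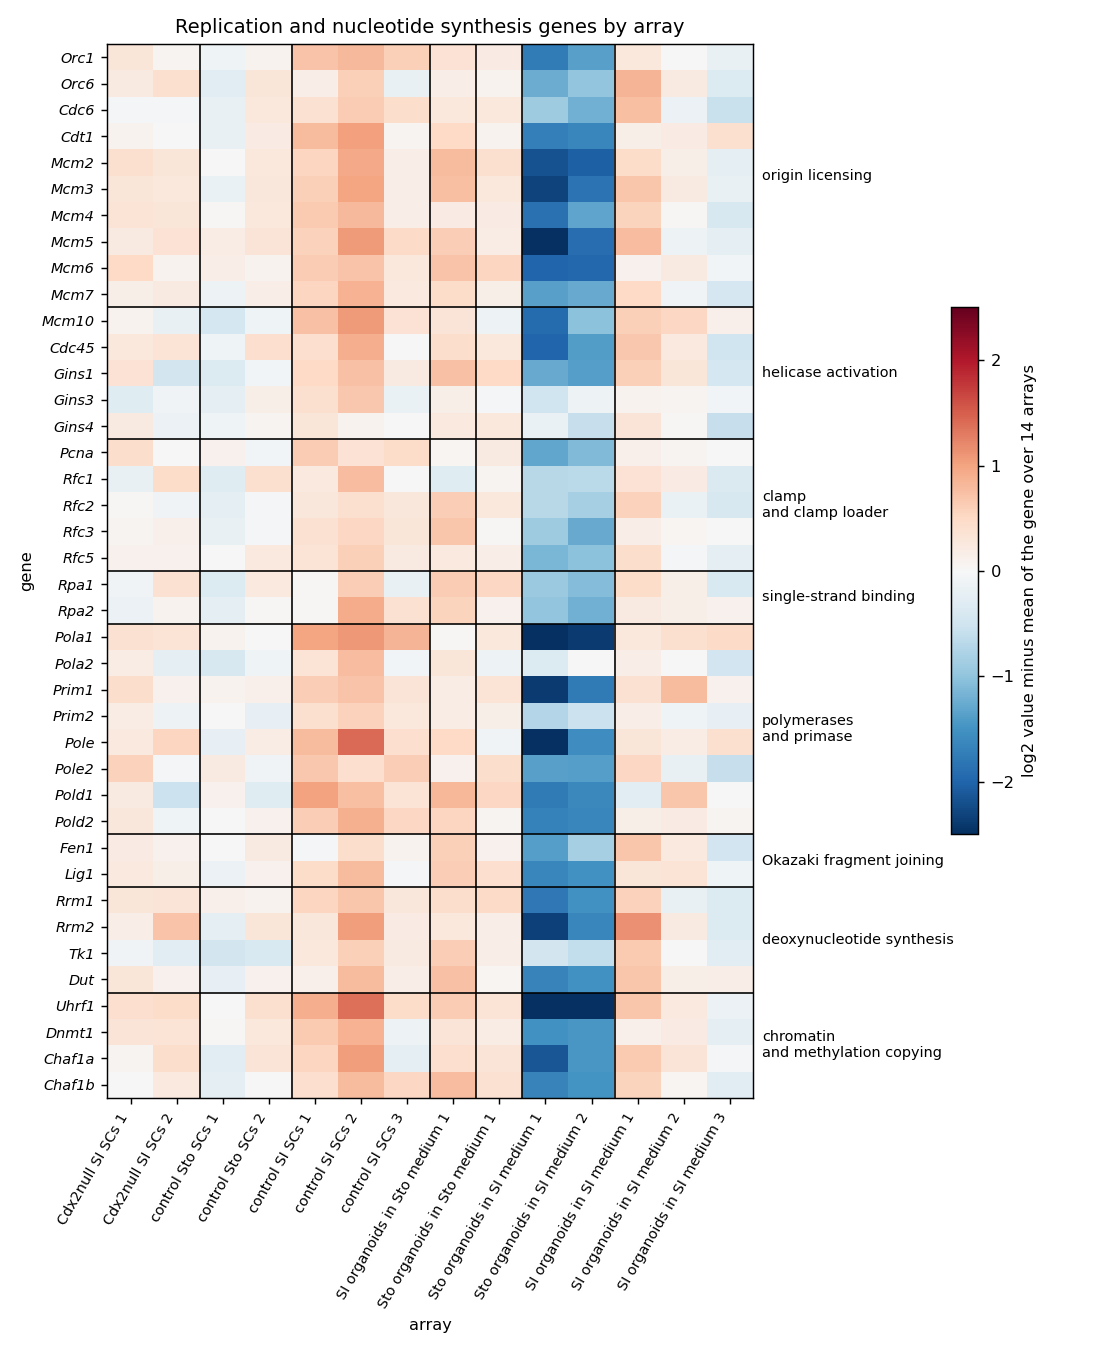
Heat map of the 40 genes (rows, by role) on 14 arrays (columns, by group), coloured by the log2 value minus the gene's mean over all arrays. The 2 columns of Sto organoids in SI medium are blue for nearly all rows, with Gins3, Gins4, Tk1 and Pola2 as the palest.

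The same 2 arrays stood apart in other measures. Lgr5 reached 4.20 and 4.32 in the Sto organoids in SI medium, against 9.29 to 11.56 on the 12 other arrays, and a list of 7 stem cell genes averaged 5.57 and 5.80 against 7.65 to 10.31, although Sox9 (10.08 and 10.51) and Rgmb (8.39 and 8.12) remained well expressed. Gastric genes went both ways. The pit cell mucin gene Muc5ac was at 12.28 and 12.03 on these arrays, against 3.59 in Sto organoids in Sto medium and 4.60 and 4.45 in control Sto SCs, and Gkn1, Gkn2 and Tff1 were higher there as well. The gland mucin gene Muc6 was at 5.82 and 8.15 on these arrays, against 10.92 in Sto organoids in Sto medium and 12.65 and 12.44 in control Sto SCs. Pgc and Cblif, genes of zymogenic cells, were also lower there than in these groups. Cblif was at 4.73 on both arrays, against 5.98 in Sto organoids in Sto medium and 10.72 and 10.22 in control Sto SCs. For Cblif the larger gap thus lay between the sorted SCs and both groups of Sto organoids. A list of 19 genes of mitosis, such as Top2a and Mki67, averaged 5.85 and 6.66 in Sto organoids in SI medium and 8.49 to 9.65 elsewhere. In bulk RNA, fewer cells in S phase and less RNA of these genes per cell cannot be told apart. SI medium is the medium in which the study lets Sto organoids differentiate. The labels do not say how long these organoids had been in SI medium. The part of differentiation in the low level of these genes was not tested.

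How alike the genes were was measured by the correlation of each with the mean of the others, as a description over arrays that share groups. Over 14 arrays Pearson's r was between 0.58 (Pola2) and 0.99, with a median of 0.94, and 31 genes were above 0.9. Without the 2 arrays of Sto organoids in SI medium the median was 0.79 over 12 arrays, and 6 genes were above 0.9. Outside the list, the 10 genes most like the mean of the replication genes over the 14 arrays were Cdca5 (r = 0.99), Rad54l, Cdc25b, Aurkb, Kif22, Cdc25c, Espl1, Cdca8, Nup107 and Cenpa (r = 0.98). Without the 2 arrays of Sto organoids in SI medium their r ran from 0.88 (Cenpa) to 0.96 (Aurkb). Cdca5, which guards sister chromatid cohesion, averaged 5.73 in Sto organoids in SI medium and 8.19 on the other arrays.

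Sorted control Sto SCs were compared with Sto organoids in SI medium, a comparison in which sorting and the medium differ together, since the SCs came from organoids in Sto medium. Each gene was tested with limma on all 14 arrays with Benjamini-Hochberg adjustment over 18820 genes, and called at an adjusted p under 0.05 with at least a 2-fold difference. Of the 40 genes, 25 were called higher in control Sto SCs and 0 lower, while 3.74% of all genes tested were called higher. The median log2 difference was 1.50, against -0.01 over all genes. Both control Sto SC arrays were above both organoid arrays for 38 of the 40 genes, and 28.2% of all genes behaved in that way.

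Among the genes of origin licensing, 8 of 10 were called. Mcm5, a subunit of the helicase ring, was at 9.68 and 9.83 in control Sto SCs and at 6.97 and 7.59 in stomach organoids in SI medium, a difference of 2.48 ± 0.35 (SE, adjusted p = 0.00348). Mcm2 was at 9.58 and 9.82 in control Sto SCs and at 7.39 and 7.53 in the organoids, a difference of 2.24 ± 0.27 (adjusted p = 0.00194). Both genes were separated by more than the gap within either group. Mcm3, Mcm4, Mcm6 and Mcm7 differed by 1.33 to 2.13, Cdt1, which brings the ring to the origin, by 1.69 and Orc1, the ATPase of the recognition complex, by 1.55, and all of these were called. Cdc6, the loading ATPase, and Orc6 differed by 1.09 (adjusted p = 0.114) and 1.13 (adjusted p = 0.117) and were not called. Among the activators of the helicase, 1 of 5 was called: Cdc45 was at 7.07 and 7.59 in control Sto SCs and at 5.19 and 5.78 in the organoids (1.84 ± 0.41, adjusted p = 0.0261). Mcm10 and Gins1 differed by 1.20 and 1.11 without passing the test. Gins3 (0.26) and Gins4 (0.35), further subunits of GINS, were close to 0.

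Of the 8 polymerase and primase genes, 6 were called. Pola1, the catalytic subunit of polymerase alpha, was at 7.21 and 7.10 in control Sto SCs, against 4.36 and 4.73 in Sto organoids in SI medium, a difference of 2.61 ± 0.16 (adjusted p = 8.11e-05). Both organoid values lie under the median of their arrays, as do those of Orc1 and of no other of the 40 genes, so that the size of these differences may be understated. Pola2, the regulatory subunit of the same enzyme, was at 8.73 and 9.02 in control Sto SCs and at 8.78 and 9.11 in the organoids, so that its groups overlapped (difference -0.07 ± 0.30, adjusted p = 0.962). Primase was read through both of its subunits. Its catalytic subunit Prim1 was at 7.75 and 7.78 in control Sto SCs and at 5.27 and 5.90 in the organoids, a difference of 2.19 ± 0.27 (adjusted p = 0.00221). Its partner Prim2 differed by 0.54 ± 0.19 (adjusted p = 0.136). Pole, the catalytic subunit of polymerase epsilon, was at 7.94 and 8.34 in control Sto SCs and at 5.04 and 6.61 in the organoids, which were themselves far apart (difference 2.32 ± 0.46, adjusted p = 0.0162). Pole2, Pold1 and Pold2 were called as well, at 1.43, 1.60 and 1.70. Whether subunits of 1 enzyme differ from each other was not tested.

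Of the 5 clamp and clamp loader genes, 2 were called. Pcna, the clamp itself, was at 11.43 and 11.25 in control Sto SCs and at 10.02 and 10.21 in stomach organoids in SI medium, a difference of 1.22 ± 0.18 (adjusted p = 0.00414). Of the loader subunits, Rfc5 was called (1.20), Rfc3 passed the test below 2-fold (0.96, adjusted p = 0.00727), and Rfc1 (0.74) and Rfc2 (0.63) did not pass. Neither of the single-strand binding genes Rpa1 (0.96) and Rpa2 (0.98) was called. Of the genes that finish the lagging strand, the ligase Lig1 was called at 1.55 and the flap nuclease Fen1 was not (1.21, adjusted p = 0.0728).

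All 4 genes that copy chromatin and methylation were called. Uhrf1, which binds hemimethylated DNA and recruits Dnmt1, had the largest difference of the 40 genes. It was at 8.20 and 8.61 in control Sto SCs and at 5.07 and 5.61 in stomach organoids in SI medium, a difference of 3.07 ± 0.35, or 8.38-fold (adjusted p = 0.00127). Dnmt1, the maintenance methyltransferase, differed by 1.63, and Chaf1a and Chaf1b, subunits of the histone chaperone of the fork, by 1.81 and 1.46. Of the deoxynucleotide enzymes, both subunits of ribonucleotide reductase were called, Rrm1 at 1.75 and Rrm2 at 2.03, as was the dUTPase Dut at 1.54. Thymidine kinase Tk1, which salvages thymidine, was the exception on the probe set used. It was at 8.14 and 8.22 in control Sto SCs and at 8.13 and 7.98 in the organoids (0.12 ± 0.27, adjusted p = 0.906). A second probe set of Tk1 was at 8.43 and 8.14 in control Sto SCs and at 7.75 and 7.47 in the organoids, a difference of 0.67, so that the probe sets of this gene disagree in size. Their means over all arrays were close (8.59 for the one used and 8.57), and their positions were not checked.

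**Figure D2:**
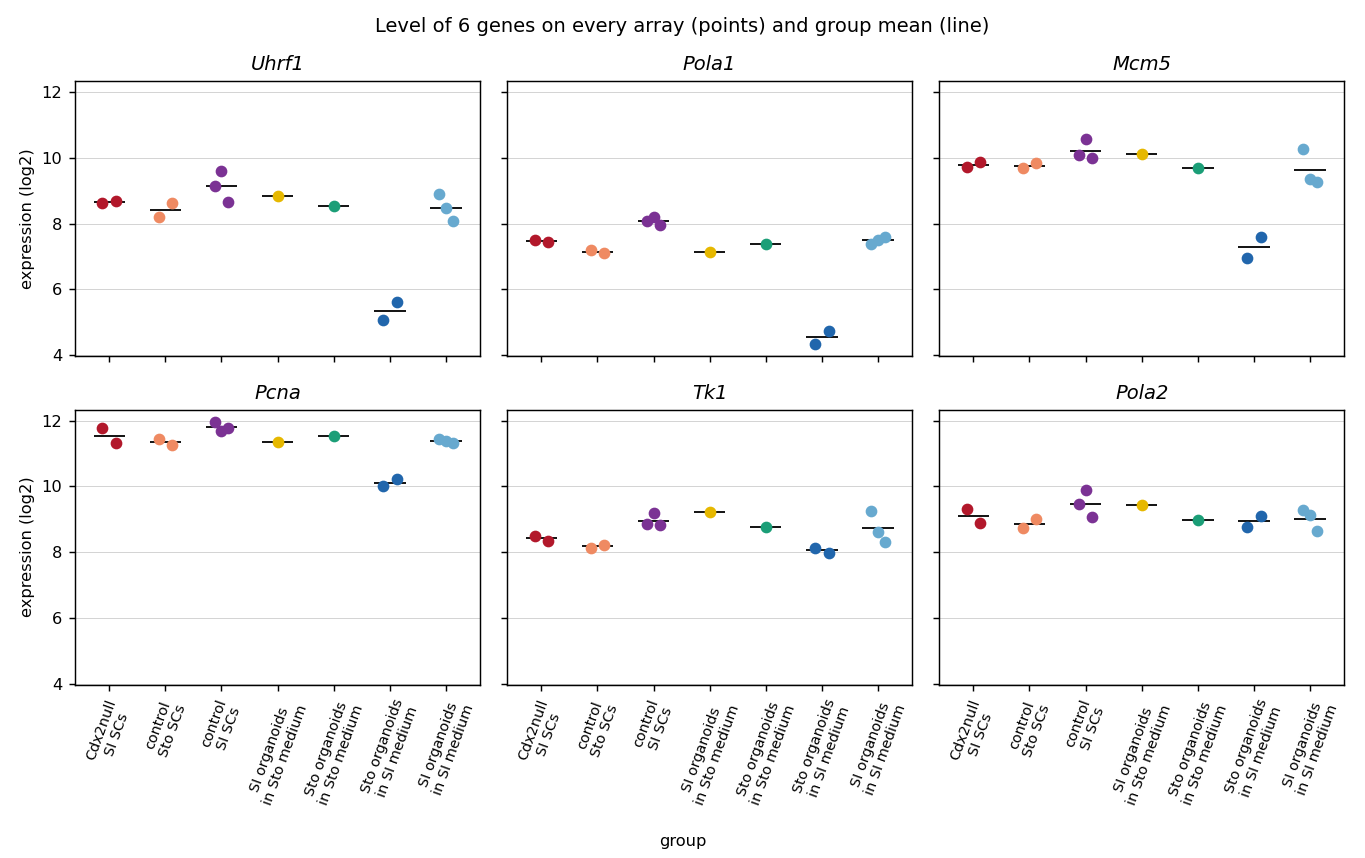
Log2 level of 6 genes on every array (points) with the group mean (line), groups on the horizontal axis. Uhrf1, Pola1, Mcm5 and Pcna are lowest in Sto organoids in SI medium (Uhrf1 5.07 and 5.61), whereas Tk1 lies there just below control Sto SCs and Pola2 overlaps with them (Pola2 8.78 and 9.11).

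Lists of related genes were read in the same comparison. Of 37 other replication proteins, 14 were called higher and 0 lower. Those with the smallest adjusted p were Chtf18 (1.78), a subunit of an alternative clamp loader, Slbp (1.38), which binds histone mRNA, Asf1b (2.21), a histone chaperone, and Ticrr (3.22), which helps to load Cdc45. Of 28 other enzymes of nucleotide and folate metabolism, 6 were called higher, led by Pfas (1.29) of purine synthesis, Shmt1 (1.54) of folate metabolism, Cad (2.24) of pyrimidine synthesis and Mthfd2 (1.04), and 0 lower. Of 30 regulators of the G1/S transition, 7 were called higher, including cyclin A2 (Ccna2, 2.77), the pocket protein Rbl1 (1.32), E2f1 (2.21) and Skp2 (1.38), and 0 lower. The 7 also include, chosen after their values were seen, the Cdk inhibitors Cdkn1c (2.19) and Cdkn2c (1.62), which restrain the cycle. Of the 19 genes of mitosis, 18 were called higher, with a list median of 2.64. These lists were assembled with results of these data known, and their counts are descriptions.

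The 25 calls depended on single arrays in both groups. Counts in alternatives, here and below, stand without the share of all genes called, so that they cannot be set against it. There were 10 without replicate 1 of the Sto organoids in SI medium, 10 without control Sto SCs 2 and 16 without control Sto SCs 1, whereas there were 29 without the 2 libraries whose Cdx2 goes against their labels. The methods' t-test called 24 before adjustment and 0 after it. All arrays compared here were female. By sign, 39 genes were higher in control Sto SCs as deposited; with the arrays centred on their medians Gins3 and Tk1 turned, and with quantile normalisation Gins3 did.

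Whole organoids in SI medium were then compared by origin, which by the labels holds the medium constant. In Sto organoids 12 of the 40 genes were called lower than in SI organoids and 0 higher, with 0.887% of all genes called lower. The median difference was -1.62, against 0.04 over all genes. Both arrays of Sto organoids were below all 3 arrays of SI organoids for 38 of the 40 genes (14.2% of all genes), with Gins4 and Pola2 as the exceptions. This comparison was fitted on the 7 organoid arrays and shares the arrays of Sto organoids in SI medium with the one above, so that it is not a separate test of their low level.

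The genes called lower were Cdt1, Mcm2 and Mcm6 of origin licensing, Pcna, Rpa2, Pola1, Prim1, Pold2, Lig1, Dut, Uhrf1 and Dnmt1. Uhrf1 was at 5.07 and 5.61 in Sto organoids and at 8.90, 8.46 and 8.07 in SI organoids, a difference of -3.14 ± 0.32 (adjusted p = 0.0347). Pola1 was at 4.36 and 4.73 in Sto organoids and at 7.37, 7.51 and 7.59 in SI organoids, a difference of -2.95 ± 0.18 (adjusted p = 0.021). Prim1 was at 5.27 and 5.90 in Sto organoids, against 8.04, 8.45 and 7.77 in SI organoids (-2.50 ± 0.30, adjusted p = 0.0419). In each of these genes all 3 SI arrays lay above both Sto arrays, by a gap larger than the range within either group. Mcm2 was at 7.39 and 7.53 in Sto organoids and at 10.02, 9.71 and 9.33 in SI organoids (-2.23 ± 0.24, adjusted p = 0.0393). Mcm6 was at 7.46 and 7.47 in Sto organoids and at 9.55, 9.66 and 9.36 in SI organoids (-2.06 ± 0.16, adjusted p = 0.0248). Cdt1 was at 7.40 and 7.48 in Sto organoids and at 9.27, 9.33 and 9.53 in SI organoids (-1.94 ± 0.16, adjusted p = 0.0253). All 3 licensing genes were separated by far more than the arrays within a group. Pole (-2.63, adjusted p = 0.0849), Mcm5 (-2.36, adjusted p = 0.0752) and Rrm2 (-2.34, adjusted p = 0.112) had large differences that did not pass. Pola2 (-0.08), Gins4 (-0.29) and Gins3 (-0.34) were again nearest to 0, and Tk1 differed by -0.67, or by -0.98 on its second probe set. Of the related lists, 7 of 37 other replication proteins were called lower in Sto organoids, led by Rpa3 (-1.71), the smallest subunit of the single-strand binding complex, and Dna2 (-2.77), a nuclease of the lagging strand. The same held for Pfas (-1.61) and Shmt1 (-1.76) of 28 other nucleotide enzymes, for Rbl1 (-1.60), Cdkn2c (-1.80), E2f1 (-2.15) and Ccna2 (-2.95) of 30 regulators of G1/S, and for 8 of the 19 genes of mitosis, and 0 genes of these lists were called higher.

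The library labelled SI organoids in SI medium 1, which goes against its label, decides part of this count. Its member mean of 8.91 was above the 8.63 and 8.30 of replicates 2 and 3, and without it 28 genes were called lower, with a median of -1.44. There were 0 calls in the fit with the replicate block, without the 2 differently exported arrays and in the methods' t-test after adjustment (29 before it). There were also 0 calls when either Sto array, or replicate 2 or replicate 3 of the SI organoids, was left out, and 31 when all 14 arrays entered the fit. Differentiation markers also differed among the 3 SI arrays, with means of 10 enterocyte genes of 4.85, 10.85 and 11.33 on replicates 1, 2 and 3. The part of these cells in the result was not tested.

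**Figure D3:**
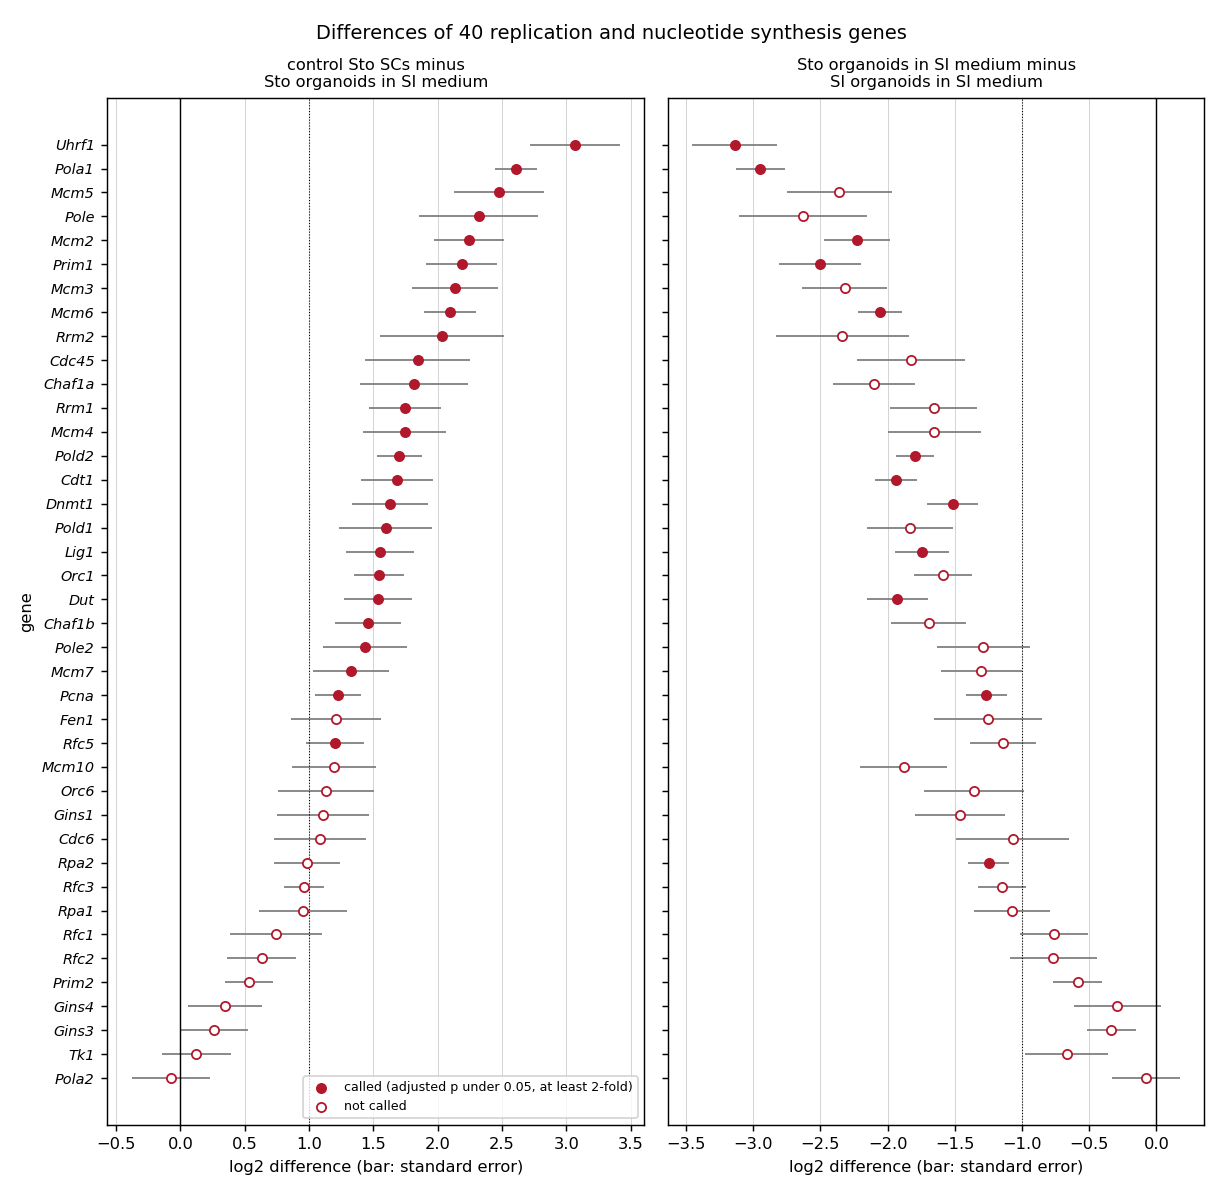
Log2 difference of each of the 40 genes (rows, sorted by the left panel) with its standard error, for control Sto SCs minus Sto organoids in SI medium (left) and Sto organoids minus SI organoids, both in SI medium (right); filled points passed the adjusted p of 0.05 at 2-fold or more. Of the 40 points, 25 are filled on the left and 12 on the right, and Pola2 lies near 0 in both panels.

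The effect of the medium was read within each origin. These comparisons were added after the values had been seen. In Sto organoids, the single array in Sto medium had a member mean of 8.70, against 6.93 and 7.16 in SI medium. All 40 genes were higher in Sto medium by sign (all but Pola2 after centring), with a median difference of 1.74, and 39 had their Sto medium value above both SI medium arrays (38.9% of all genes). Uhrf1 was at 8.55 in Sto medium and at 5.07 and 5.61 in SI medium, a difference of 3.21 ± 0.42 (adjusted p = 0.0975). Pola1 was at 7.39 in Sto medium, against 4.36 and 4.73 in SI medium (2.84 ± 0.25, adjusted p = 0.0543). With 1 array in Sto medium, 0 of the 40 genes were called by limma, where 0.0691% of all genes were called higher. The lone array is assumed to vary like the other groups. It was male (Xist at 3.23) and both SI medium arrays were female (11.55 and 11.39), so that medium and sex cannot be told apart here, nor in the difference of the medium effects below. Over the alternatives the median ran from 1.53 to 1.77, while the number of calls depended on the arrays that entered the fit.

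In SI organoids, the array in Sto medium had a member mean of 8.91, against 8.91, 8.63 and 8.30 in SI medium. The median difference between the media was 0.35, 33 of 40 genes were higher in Sto medium by sign, and 20 had their Sto medium value above all 3 SI medium arrays (23.8% of all genes). The median was 0.49 without the library labelled SI organoids in SI medium 1, and 0.22 without replicate 3. Limma called 0 of the 40 genes, and 0% of all genes were called higher. The difference of the 2 medium effects, in Sto organoids minus SI organoids, was positive for 39 genes with a median of 1.40 (-0.02 over all genes). It was 3.19 ± 0.34 for Pola1 (adjusted p = 0.286) and 2.84 ± 0.58 for Uhrf1 (adjusted p = 0.485). Here too 0 of the 40 genes were called (0% of all genes higher). Without the library that goes against its label the median was 1.32 and 1 gene was called. A model that gave both origins 1 common medium effect had a median of 0.96 over the 40 genes, with all 40 higher in Sto medium by sign. Limma called 0 of them (0% of all genes higher), and 21 of the 40 and 1816 of all 18820 had an unadjusted p under 0.05. With all 14 arrays in the fit 12 were called, and with a term for sex, which leaves only the contrast within SI organoids, the median was 0.35.

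Sorted SCs and organoids in Sto medium were not told apart by the test in these genes, where 1 control SI SC array has no stated medium. The mean over both origins of control SCs minus organoids had a median of -0.02 over the 40 genes, with 18 higher and 22 lower by sign (22 and 18 after quantile normalisation). Limma called 0 of the 40 genes (0.0319% of all genes higher). The Sto arm sets female SCs against a male organoid array. With a term for sex, which rests on the arrays of control SI SCs, the median was -0.11. The values ran from -0.52 for Rpa1 to 0.35 for Pola1. Lgr5, the gene whose reporter was used to sort the SCs, was at 10.77 to 11.56 in the control SCs and at 9.95 and 9.29 in these organoids.

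Intestinal SCs were also set against the organoids of their origin in SI medium, and no gene differed by 2-fold. The median was 0.36, 39 of 40 genes were higher in the SCs by sign, and 8 had all SC arrays above all organoid arrays (5.05% of all genes). Limma called 0 of the 40 (0.122% of all genes higher), as did the methods' t-test. An unadjusted p under 0.05 in limma was reached by 11 of the 40 genes and by 1776 of all 18820. The largest difference was that of Orc1, at 6.78, 6.87 and 6.65 in control SI SCs and at 6.32, 6.08 and 5.88 in SI organoids in SI medium (0.67 ± 0.16, adjusted p = 0.16). Its groups did not overlap, but the difference did not pass. Over the alternatives the median ran from 0.23, without control SI SCs 2, to 0.67 with a term for sex. All organoid arrays here were female, so that this term in effect sets control SI SCs 2 alone against them. Without the library labelled SI organoids in SI medium 1 the median was 0.53. Pole2 (0.65), Uhrf1 (0.65) and Pola1 (0.60) came next.

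The interaction asked whether the difference between sorted SCs and organoids in SI medium was itself larger in stomach than in intestine. It was positive for 37 of 40 genes with a median of 1.10 (near 0 over all genes), and 4 were called higher, against 0.478% of all genes. In limma 25 of the 40 genes and 1886 of all 18820 had an unadjusted p under 0.05. Pola1 differed by 2.61 in stomach and by 0.60 in intestine, an interaction of 2.01 ± 0.21 (adjusted p = 0.00474). Uhrf1 differed by 3.07 in stomach and 0.65 in intestine (2.41 ± 0.45, adjusted p = 0.0479), Prim1 by 2.19 and 0.13 (2.06 ± 0.35, adjusted p = 0.0371) and Mcm6 by 2.10 and 0.45 (1.65 ± 0.26, adjusted p = 0.0264). Pola2 had the lowest value, -0.53 ± 0.39 (adjusted p = 0.779). By centring, Gins4 and Prim2 turned in sign. With a term for sex, which rests on the arrays of control SI SCs, 0 of the 40 were called. Without the 2 differently exported arrays there was 1 call, in a fit on the 4 groups alone 2, with the replicate block 8 and after quantile normalisation 9. Without both libraries whose Cdx2 goes against their labels 7 were called, with a median of 0.91. There was 1 call without replicate 1 of Sto organoids, replicate 1 of control SI SCs, either array of control Sto SCs or replicate 2 of the SI organoids, and there were 8 without the library labelled SI organoids in SI medium 1. Leaving out replicate 2 of Sto organoids, either Cdx2null array or replicate 3 of control SI SCs gave 2.

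Loss of Cdx2 was read in the sorted cells. In Cdx2null SI SCs 0 of the 40 genes were called against control SI SCs, where 0.595% of all genes were called lower, and the methods' t-test at 2-fold also found 0, with and without adjustment. By sign 39 of the 40 were lower, all but Orc6 (0.12, which turned with both other scalings), with a median of -0.30 (0.03 over all genes). An unadjusted p under 0.05 in limma was reached by 9 of the 40 genes and by 2180 of all 18820. Both Cdx2null arrays were below all 3 control arrays for 14 genes, while 9.52% of all genes lay in that way. Pola1 was at 7.50 and 7.45 in Cdx2null SI SCs and at 8.09, 8.20 and 7.96 in control SI SCs (-0.61 ± 0.14, adjusted p = 0.11). Pold1, the catalytic subunit of polymerase delta, was at 8.57 and 7.82 in Cdx2null SI SCs and at 9.37, 9.10 and 8.71 in control SI SCs (-0.86 ± 0.29, adjusted p = 0.288). The groups did not overlap in either gene, and neither passed. Mcm10 (-0.77) and Pold2 (-0.59) followed, whereas Rpa1 and Fen1 (-0.01 each) and Rrm2 (-0.07) were near 0. The library labelled Cdx2null SI SCs 1, in which Cdx2 was high, had a member mean of 8.67, close to the 8.61 of replicate 2, and without it the median was -0.35. Over all alternatives the median ran from -0.61 to -0.21, with -0.47 after quantile normalisation and -0.61 with a term for sex. Both Cdx2null arrays were female, so that this term in effect sets them against control SI SCs 2 alone. Of the related genes, limma called 2 of 30 G1/S regulators higher in Cdx2null SI SCs, with 0.93% of all genes called higher, namely Mycn (1.97, adjusted p = 0.0485), a transcription factor of growth and proliferation, and Cdkn2a (1.03, adjusted p = 0.0318), a tumour suppressor locus that restrains the cycle. None of the other replication, nucleotide or mitosis genes was called. Below 2-fold, Pold3, a further subunit of polymerase delta, passed in limma and was higher in Cdx2null SI SCs (0.77, adjusted p = 0.0485).

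Control Sto SCs were set against the same control SI SC arrays. All 40 genes were lower in control Sto SCs by sign, with a median of -0.46 (0.03 over all genes). In limma 18 of the 40 genes and 2936 of all 18820 had an unadjusted p under 0.05. Both Sto arrays were below all 3 SI arrays for 24 genes, against 10.6% of all genes. Limma called 0 at 2-fold (0.914% of all genes lower), as did the methods' t-test. Pola1 was the one gene that passed at any fold, at 7.21 and 7.10 in control Sto SCs and 8.09, 8.20 and 7.96 in control SI SCs (-0.93 ± 0.14, adjusted p = 0.0181). Mcm10 was at 7.20 and 7.54 in control Sto SCs and at 8.38, 8.71 and 8.01 in control SI SCs (-0.99 ± 0.24, adjusted p = 0.0837), and Tk1 was at 8.14 and 8.22 in control Sto SCs and at 8.86, 9.18 and 8.82 in control SI SCs (-0.78 ± 0.16, adjusted p = 0.0569). All 8 polymerase and primase genes were lower in control Sto SCs without overlap. With the arrays centred on their medians, or quantile normalised, 3 of the 40 were called lower. The median ran from -0.80, with a term for sex, to -0.34 without control SI SCs 2. Both Sto arrays were female, so that the term for sex in effect sets them against control SI SCs 2 alone. Of the 30 G1/S regulators, Mycn was called higher in control Sto SCs, by 2.01, with 1.94% of all genes called higher. Below 2-fold in limma, Pold3 of the related lists passed as higher in control Sto SCs (0.75, adjusted p = 0.036). Pfas (-0.72, adjusted p = 0.0366) and the mitosis gene Bub1 (-0.89, adjusted p = 0.0219) passed as lower.

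Cdx2null SI SCs and control Sto SCs were close. The median difference was 0.19 (-0.01 over all genes), 36 of 40 genes were higher in Cdx2null SI SCs by sign, and 11 did not overlap upwards (10.2% of all genes). The differences ran from -0.15 for Gins3 to 0.40 for Pole. Limma called 0 of the 40 (0% of all genes in either direction), as did the methods' t-test. In limma 0 of the 40 genes and 286 of all 18820 had an unadjusted p under 0.05. The median was 0.16 without the library labelled Cdx2null SI SCs 1, and over the alternatives it ran from 0.05 to 0.29, both with 1 control Sto SC array left out. These 3 comparisons of sorted cells share their arrays pairwise, and their values are given side by side for that reason.

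**Figure D4:**
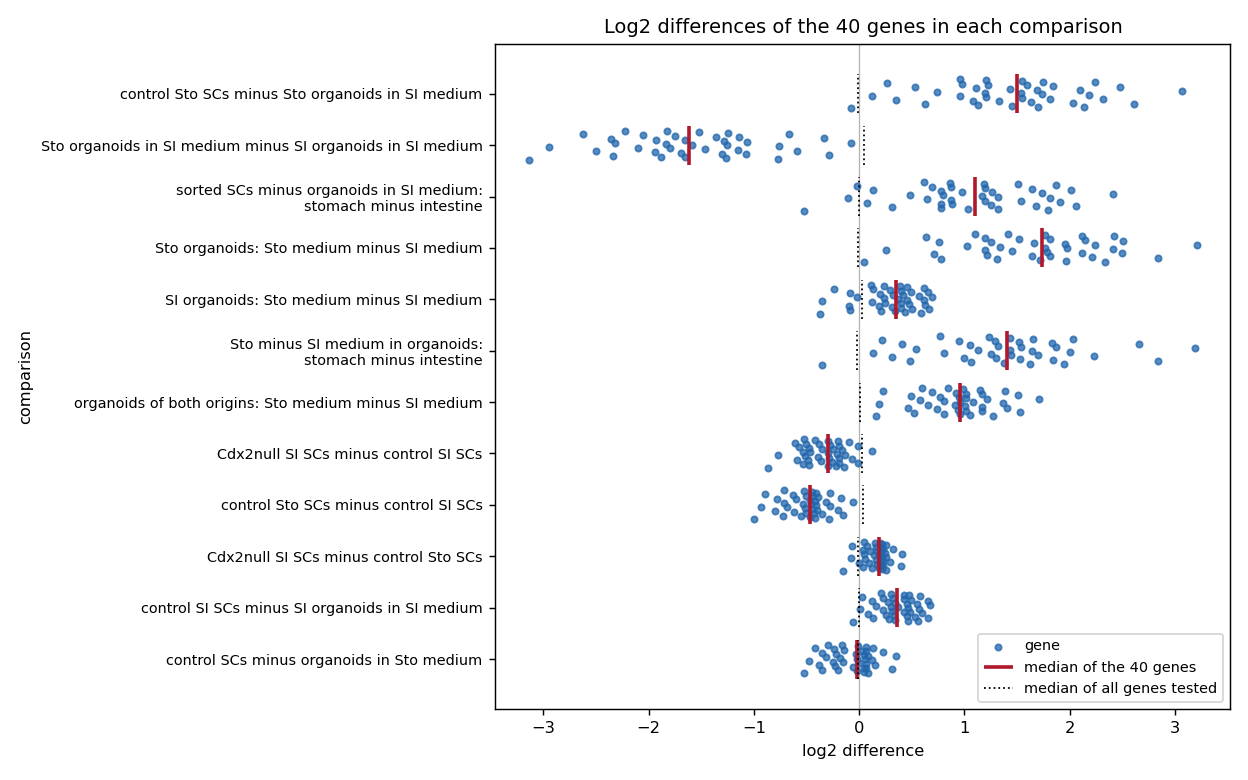
Log2 differences of the 40 genes (points) in each of 12 comparisons, with the median of the 40 genes (solid line) and of all genes tested (dotted line). Medians lie at 1.50, -1.62 and 1.74 where Sto organoids in SI medium are one side, between 0.96 and 1.40 where they are one of 4 groups compared, and between -0.46 and 0.36 in the comparisons of the other groups.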

How the data were processed

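Expression was measured in 14 samples of 7 groups on Mouse Gene ST 1.1 arrays of Affymetrix. The authors normalised them with the RMA-sketch algorithm of Affymetrix Power Tools and deposited log2 values for 35556 probe sets, which were used as deposited; the version and genome build are not given in the sources used here. RMA gives silent genes a background value, so that folds of weak genes are compressed, and it assumes similar distributions on all arrays. The values of 2 arrays had passed through a rounded linear scale before log2 was taken, and whether these were normalised with the others is not stated. Precision is limited by the number of arrays.

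Of the probe sets, 21218 had 1 gene symbol in the platform annotation, 1881 had several and 12457 none. Symbols were updated through a RefSeq table (GRCm38.p6), and the probe set with the highest mean was kept, which left 18820 genes. Groups followed the labels. The deviations of same-numbered arrays were correlated above 0.1 in all 3 pairs of 1 comparison, control SI SCs with SI organoids in SI medium. By Xist, replicates 1 and 3 differ in sex between these groups, so that these pairs do not come from 1 animal. The labels name no shared animal or day. Differences were fitted with limma 3.58.1 (lmFit, eBayes; R 4.3.3), 2-sided, with Benjamini-Hochberg adjustment over all genes; the fit was tested on simulated data. Comparisons of SCs used 7 arrays, those among organoids 7, and those between SCs and organoids all 14. Genes were called at an adjusted p under 0.05 and 2-fold, the fold stated in the methods, whose t-test was run as an alternative. Other alternatives were centring, quantile normalisation, a filter at 5 (log2), the mean of all probe sets, a trended robust prior, other arrays in the fit, a replicate block, a term for sex (read from Xist) and leaving out arrays.

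The genes, roles and lists were chosen with earlier results of these data known. In each comparison, values per array are given for up to 6 called genes with the largest differences, and up to 3 genes nearest 0 serve as contrast; in comparisons without calls, the genes shown were chosen after their values were seen. Of related lists, up to 4 called genes with the smallest adjusted p were named. Promoter sequences are from RefSeq (GRCm38.p6), 1 per gene.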

Additional observations from a re-analysis of the deposited data

Results flagged for a closer look

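For 4 genes the difference between sorted SCs and organoids in SI medium was itself different between stomach and intestine by the interaction test in limma (Benjamini-Hochberg adjusted p under 0.05): Mcm6 by 1.65, Pola1 by 2.01, Prim1 by 2.06 and Uhrf1 by 2.41 on the log2 scale. For Pola1 the difference kept its call in 23 of 24 alternatives, with values of 1.74 to 2.20 and adjusted p of 0.000987 to 0.0512. Mcm6 kept it in 16 of 24 (adjusted p 0.00886 to 0.159), Prim1 in 12 of 24 (0.0139 to 0.202) and Uhrf1 in 12 of 24 (0.0123 to 0.25). The stomach side rests on 2 arrays of Sto organoids in SI medium, which also had the lowest Lgr5, at 4.20 and 4.32. Sorting and medium differ together in both origins, as far as the medium is stated.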

How the results depend on the processing

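No value of the 40 genes that were called reversed under any alternative. Of the values computed for called genes, 566 of 650 kept their call for control Sto SCs against Sto organoids in SI medium, 153 of 240 for Sto against SI organoids in SI medium and 63 of 96 for the interaction. In control Sto SCs against Sto organoids in SI medium (25 called), leaving out 1 array gave 10 to 29 and the methods' t-test after adjustment 0. In Sto against SI organoids in SI medium (12 called), centring gave 20, quantile normalisation 22, all 14 arrays 31, the methods' t-test 29 before and 0 after adjustment, the replicate block 0, leaving out the differently exported arrays 0, leaving out both libraries whose Cdx2 goes against their labels 28, and leaving out 1 array 0 to 28. For the interaction (4 called) quantile normalisation gave 9, only the groups compared 2, the replicate block 8, a term for sex 0, leaving out the differently exported arrays 1, leaving out both libraries whose Cdx2 goes against their labels 7 and leaving out 1 array 1 to 8. For control Sto SCs against control SI SCs (0 called), any fold gave 1, centring 3, quantile normalisation 3 and the replicate block 1. For Sto organoids in Sto against SI medium (0 called), centring and quantile normalisation gave 1 each, all 14 arrays 21, leaving out both libraries whose Cdx2 goes against their labels 24, and leaving out 1 array 0 to 24. The difference of the medium effects (0 called) gave 1 with all 14 arrays, 1 without both libraries whose Cdx2 goes against their labels and 0 to 1 without 1 array, and the common medium effect 12 with all 14 arrays. The causes were not tested. The other comparisons had 0 calls under all alternatives run. Shares of all genes called are given for the main fits only, so that the counts in the alternatives stand without them. Leaving out both libraries was chosen after seeing the data.

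Same-numbered arrays were compared by the correlation of their deviations from the group means, over 21 pairs (-0.19 to 0.40, with 8 above 0.1). Between control SI SCs and the organoids of that origin in SI medium all 3 pairs were above 0.1 (0.16, 0.19 and 0.28), and the block left 0 calls and a median of 0.36 there. No other comparison has 3 pairs. Among SCs, the 2 pairs of control Sto with control SI SCs (0.18 and 0.40) and those of Cdx2null with control Sto SCs (0.38 each, equal by construction) were above 0.1, and of the pairs of Cdx2null with control SI SCs 1 was (0.07 and 0.27). The block gave 29 calls in control Sto SCs against Sto organoids in SI medium and changed no count other than this and those above. It could not be fitted for control SCs against organoids in Sto medium and for the medium within SI organoids, nor for the difference of the medium effects. Centring shifted the median of all genes in control Sto SCs against Sto organoids in SI medium to -0.30, where 22 of the 40 genes were called.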
